A study of Mus musculus with 6 samples.

Results

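The mouse mitochondrial genome encodes 37 genes, and all 37 were found among the 55367 gene symbols of the deposited expression table, as the rows whose symbol starts with mt-. They comprise 13 protein-coding genes, 2 ribosomal RNA (rRNA) genes and 22 transfer RNA (tRNA) genes. No gene was chosen by its measured level. Expression was measured as FPKM, the fragments assigned to a gene per kilobase of its length, scaled to the fragments mapped in the library, in 6 libraries.

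The cells were tdTomato-positive neurons sorted by fluorescence from the hippocampal dentate gyrus (DG) of TRAP2;Ai9 mice. These mice carry a tamoxifen-inducible Cre at the activity gene Fos (Fos-iCreERT2) and a Cre-dependent red reporter (Rosa26-LSL-tdTomato), so that cells active while the drug is present stay red. All mice had been through learned helplessness (LH+), a stress procedure used in depression research. The 3 libraries of the NR group came from mice with no running (treatment Non Run) and the 3 of the Run group from mice with 28 days of voluntary running. Every library belonged to batch 1 by its label. Age, sex and the number of cells or animals behind each library are not given in the sources used here, so p-values speak only of variation among the 6 libraries, part of which may be technical. RNA was copied with Smart-seq2, a full-length method primed on poly(A) tails, without molecular identifiers and without marking the strand.

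The mitochondrial genome is a small circle copied into long transcripts from both strands. Most of its mRNAs and rRNAs are separated by tRNA genes, and cutting at the tRNAs releases the individual RNAs, to which short poly(A) tails are added. The mRNAs encode core subunits of respiratory complexes I, III and IV and of the ATP synthase, which are assembled together with many subunits encoded in the nucleus. Each cell holds many copies of this genome, and its RNAs are among the most abundant of neurons and glia.

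The genes lie so close together that some share bases, which bears on how fragments can be assigned to them. In the GENCODE M21 annotation of the mm10 build, 28 of the genes are on the plus strand of chromosome M and 9, namely mt-Nd6 and 8 tRNA genes, on the minus strand. The largest overlap is that of mt-Atp8 and mt-Atp6, 43 bases long, followed by 14 bases of mt-Nd5 and mt-Nd6 on opposite strands and 7 bases of mt-Nd4l and mt-Nd4. The sequences below show these shared stretches, with the shared bases in capitals, for mt-Atp8 (chrM:7897-7969, plus strand) and mt-Nd4l (chrM:10137-10173, plus strand). A fragment from the capitals belongs to both genes.
mt-Atp8 end: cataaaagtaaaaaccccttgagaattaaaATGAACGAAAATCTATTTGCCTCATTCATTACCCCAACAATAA
mt-Nd4l end: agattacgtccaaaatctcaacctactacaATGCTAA

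Another overlap is between genes on opposite strands. The tRNA gene mt-Ts1 (serine) lies opposite the end of mt-Co1, and the mt-Co1 mRNA is known to run on beyond its stop codon through the stretch opposite this tRNA. Since the method does not mark strand, fragments of the tRNA and of that mRNA end cannot be told apart. Both sequences are shown 5′ to 3′ for their own strand, mt-Ts1 from chrM:6870-6938 (minus) and the end of mt-Co1 from chrM:6831-6872 (plus), with the 3 complementary bases in capitals.
mt-Ts1: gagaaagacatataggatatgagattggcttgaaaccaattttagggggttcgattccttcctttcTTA
mt-Co1 end: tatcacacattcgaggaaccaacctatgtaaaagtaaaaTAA

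Poly(A) tails also complete the coding sequence of some mitochondrial mRNAs. The annotated lengths of 3 of the 13 protein-coding genes, mt-Co3 (784 bases), mt-Nd4 (1378) and mt-Cytb (1144), were not multiples of 3. Each ends in a single T after its last whole codon, shown in capitals, which the tail extends to the stop codon UAA. The stretches are chrM:9363-9390, chrM:11517-11544 and chrM:15261-15288, all on the plus strand.
mt-Co3 end: tacgtctccatttattgatgaggatctT
mt-Nd4 end: ccaaaactaattacaggcctgacaataT
mt-Cytb end: gaagacaaaatactaaaattatatccaT

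A nuclear copy of part of the mitochondrial genome is annotated on chromosome 1, and it took up values of its own. The 7 annotated pseudogenes described here span 24611535 to 24616197 (mm10, minus strand, 4663 bases), each matching 1 mitochondrial protein-coding gene. They are those with a mean FPKM of at least 1 among 8 copies searched. The other, Gm28436, was listed at 0 in every library. Over the 4137 bases that aligned, there was 1 mismatch in all, A1066T between mt-Co1 and Gm29216, counted from the first base of mt-Co1. The other pairs were identical over their aligned length. They were mt-Atp6 with Gm10925, mt-Nd4l with Gm10222, mt-Co3 with Gm28437, mt-Nd3 with Gm28438, mt-Co2 with Gm28661 and mt-Nd4 with Gm28439, which matches 876 of the 1378 bases of mt-Nd4.

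The copies were listed at levels close to those of their mitochondrial partners. Gm10925 had 6802, 7146 and 6725 FPKM in replicates 1, 2 and 3 without running (NR) and 5586, 9262 and 7169 in those with running (Run). Its partner mt-Atp6 had 0.976 to 0.988 times these values. The ratio of mitochondrial gene to copy was as even for mt-Co2 and Gm28661 (0.979 to 0.982), mt-Co3 and Gm28437 (0.981 to 0.988) and mt-Nd4l and Gm10222 (0.953 to 0.966). It was less even for mt-Nd3 and Gm28438 (1.10 to 1.33), mt-Co1 and Gm29216 (1.17 to 1.42), and mt-Nd4 and Gm28439 (2.04 to 2.61). For 7 of 7 pairs, the copy and its partner were highest in the same library. Fragments of identical sequence cannot be assigned to the mitochondrial or the nuclear locus, so the levels of at least these 7 mitochondrial genes are uncertain to that extent. Only the annotated pseudogenes were aligned. Since Gm10925 matches 678 of the 681 bases of mt-Atp6, it also matches part of the 43 bases or all 43 that mt-Atp8 shares with mt-Atp6. Whether the nuclear locus also matches the rest of mt-Atp8, or other genes between these 7 on chromosome M such as mt-Ts1, was not examined. The copies took another 3.80% to 5.81% of the FPKM summed over all symbols.

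**Figure D1:**
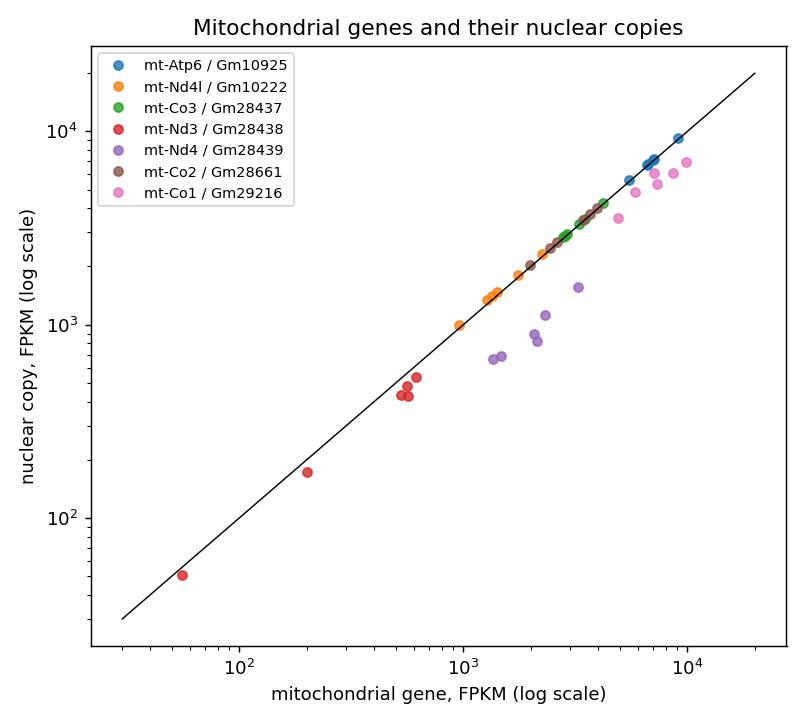
FPKM of each nuclear copy on chromosome 1 (vertical, log scale) against that of the mitochondrial gene it matches (horizontal, log scale), 1 point per library and a line where both are equal. The points of mt-Atp6, mt-Co2, mt-Co3 and mt-Nd4l lie on or next to the line in all 6 libraries, whereas those of mt-Nd4 lie below it, at a ratio of mitochondrial gene to copy of 2.04 to 2.61.

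The libraries were alike in summed FPKM (473786 to 492021) and less so in the number of genes at FPKM of at least 1, which ranged from 5426 in NR replicate 1 to 7355 in NR replicate 2. Markers of the labelled cell type were sparse in places. Snap25, of the synaptic release machinery, was present in every library at 169 to 454 FPKM, whereas Rbfox3, the gene of the neuronal antigen NeuN, was listed at 0 in NR replicates 1 and 3. Of the 6 granule neuron markers searched, 0 to 4 reached FPKM 1 in a library. Their summed FPKM was 0.298 to 133 in NR and 21.5 to 160 in Run, and that of the 6 neuron markers was 273 to 772 and 531 to 921. Astrocyte markers summed to 2436 to 4491 FPKM in NR and 2612 to 5225 in Run, with 6 or 7 of 7 at FPKM 1 or more in each library. Oligodendrocyte markers summed to 208 to 1332 and 145 to 905, microglial markers to 55.0 to 189 and 179 to 640, endothelial markers to 775 to 1982 and 774 to 1277, and mural cell markers to 489 to 1438 and 317 to 743. Astrocyte markers, microglial markers and mitochondrial RNA were each highest in Run replicate 2. NR replicate 2, with the next highest mitochondrial share of the summed FPKM (14.9%), had the lowest astrocyte sum (2436). The part of other cell types in the mitochondrial values was not tested. In pooled material, fewer cells of a type and less RNA per cell cannot be told apart.

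Mitochondrial RNA was abundant in both groups, and its total did not separate runners from non-runners. The 37 genes took 12.3%, 14.9% and 12.5% of the summed FPKM without running (NR replicates 1 to 3) and 11.2%, 15.96% and 10.5% with running (Run replicates 1 to 3), the order of libraries used throughout. The highest and the lowest of these shares both belonged to Run, so the groups overlapped. FPKM is scaled by length, so the values were also multiplied back by the GENCODE M21 gene length, for matched symbols only. The same genes then took 4.68%, 5.61% and 4.74% without running and 4.03%, 6.02% and 3.86% with running. This only approximates a share of fragments, since the lengths behind the FPKM values are not given. By class, the 13 mRNAs held 8.91% ± 0.87 of the summed FPKM without running and 9.06% ± 2.12 with running (SD, n = 3 each). The 2 rRNAs held 3.53% ± 0.47 and 2.84% ± 0.64, and the 22 tRNA genes 0.79% ± 0.21 and 0.64% ± 0.23. Without mt-Ts1, whose fragments cannot be told from those of the mt-Co1 mRNA end, the tRNA share was 0.32% ± 0.17 and 0.23% ± 0.15. Among the mRNAs, the highest library was Run replicate 2 for 8 of 13 genes and NR replicate 2 for the other 5. No test was made of these sums, since they combine genes chosen as a group.

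**Figure D2:**
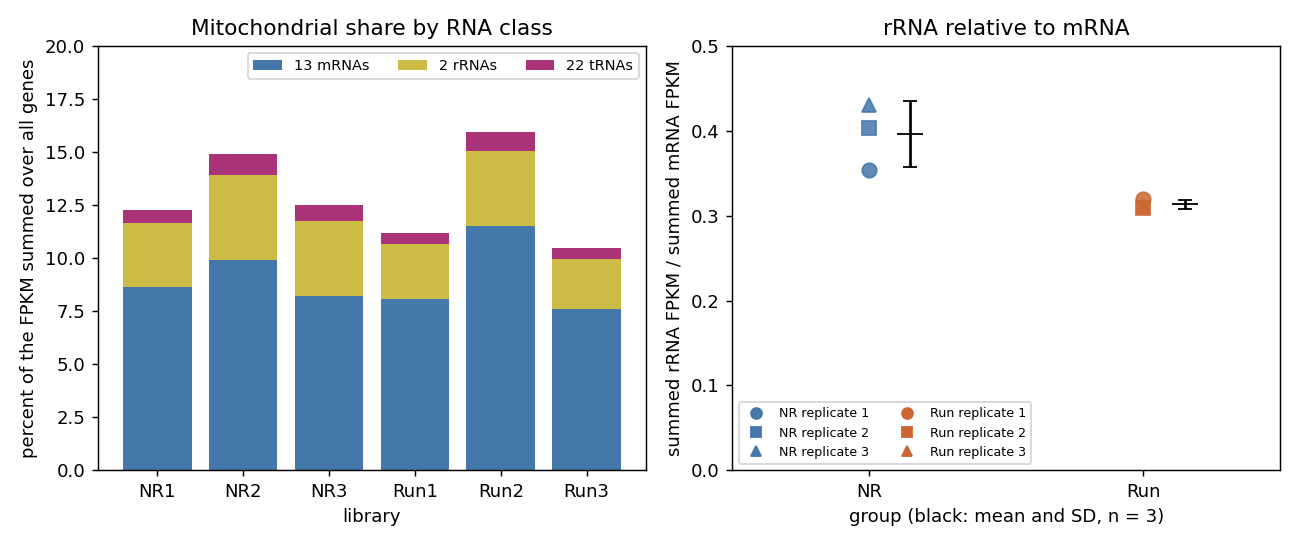
Left, percent of the summed FPKM held by mitochondrial mRNAs, rRNAs and tRNAs in each library. Right, summed rRNA FPKM over summed mRNA FPKM by library, with the mean and SD of each group. The total share is highest in Run replicate 2 (15.96%) and lowest in Run replicate 3 (10.5%), and the ratio is 0.354 to 0.430 in NR and 0.310 to 0.319 in Run.

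Complex I takes electrons from NADH, and 7 of its subunits, which form the proton-pumping membrane arm, are encoded in the mitochondrial genome. Their mRNAs held 28.2%, 34.1% and 27.2% of the mitochondrial mRNA FPKM without running and 32.4%, 29.1% and 27.8% with running. The levels of the 7 genes spanned more than those of the other complexes, although they are cut from shared transcripts. mt-Nd1 (chromosome M, 2751 to 3707), next to the rRNA genes, was the highest at 5959, 5567 and 4202 FPKM without running and 5994, 6873 and 5222 with running. mt-Nd2 (3914 to 4951) had 726, 1564 and 1209 FPKM without running and 1094, 1476 and 887 with running. The ranges of the groups overlapped for both genes.

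mt-Nd4 and mt-Nd4l are read from 1 mRNA that carries both reading frames. mt-Nd4 (10167 to 11544) had 2068, 3238 and 2140 FPKM without running and 1356, 2306 and 1479 with running, so that a single Run library, replicate 2, lay above the lowest NR library. mt-Nd4l (9877 to 10173) had 1277, 2246 and 1414 without running and 1347, 1751 and 955 with running. On this scale per length, mt-Nd4 was listed at 1.01 to 1.62 times the level of mt-Nd4l in the 6 libraries. The nuclear copies match 294 of the 297 bases of mt-Nd4l but 876 of the 1378 of mt-Nd4. This ratio may therefore depend on how identical fragments were assigned, which was not tested. Both genes were highest in NR replicate 2.

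The remaining complex I genes had the lowest means of the 13 mRNAs. mt-Nd5 (11742 to 13565), the longest gene of the genome at 1824 bases, had 558, 1354 and 783 FPKM without running and 1230, 1867 and 923 with running. Its neighbour mt-Nd6 (13552 to 14070), the only protein-coding gene on the minus strand, had 669, 1550 and 666 without running and 906, 1177 and 861 with running. Fragments antisense to mt-Nd6 from the other strand's transcript cannot be told from its own. mt-Nd3 (9459 to 9806) was the most variable mRNA, with 562, 616 and 201 FPKM without running and 526, 565 and 55.7 with running. Replicate 3 was the lowest library of each group for mt-Nd3, and its highest value was 11.1 times its lowest, against a median of 2.01 times over the 13 mRNAs. The nuclear copy of mt-Nd3, Gm28438, was also lowest in Run replicate 3, at 50.9 FPKM.

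Complex III passes electrons from ubiquinol to cytochrome c, and its only mitochondrially encoded subunit is cytochrome b. mt-Cytb (14145 to 15288) had 5991, 7209 and 6620 FPKM without running and 6860, 7961 and 5842 with running. It was the steadiest mRNA, with a highest value 1.36 times its lowest, and no annotated nuclear copy was among the 7.

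Complex IV, cytochrome c oxidase, reduces oxygen with the 3 subunits encoded here at its core, and their mRNAs held 29.1% to 34.5% of the mitochondrial mRNA FPKM. mt-Co1 (5328 to 6872), the subunit that holds the oxygen-reducing site, had 8591, 7096 and 7314 FPKM without running and 4891, 9851 and 5806 with running. Of the Run libraries, replicate 2 lay above and replicates 1 and 3 below every NR library. mt-Co2 (7013 to 7696), which receives electrons from cytochrome c, had 2620, 3664 and 1990 without running and 3423, 3932 and 2440 with running. mt-Co3 (8607 to 9390) had 3278, 3493 and 2829 without running and 2891, 4178 and 2798 with running. The 3 mRNAs were not listed at equal levels per length, mt-Co1 being the highest in every library. The nuclear copies match 681 of the 684 bases of mt-Co2 and 783 of the 784 of mt-Co3, but 483 of the 1545 of mt-Co1. This order may therefore depend on how identical fragments were assigned, which was not tested.

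The ATP synthase uses the proton gradient to make ATP, and its mitochondrially encoded parts are subunit a, from mt-Atp6, which forms the proton channel, and the small membrane protein of mt-Atp8. mt-Atp6 (7927 to 8607) had 6689, 7047 and 6622 FPKM without running and 5492, 9042 and 7082 with running. mt-Atp8 (7766 to 7969) had 2989, 2685 and 2989 without running and 2471, 4105 and 3064 with running. The 3 NR values of each gene lay inside the range of the 3 Run values. Although both frames sit on 1 mRNA and share 43 bases, mt-Atp6 was listed at 2.20 to 2.62 times the level per length of mt-Atp8. A nuclear copy matches 678 of the 681 bases of mt-Atp6, and for mt-Atp8 outside the shared bases a match was not examined. How far the assignment of identical fragments bears on this ratio was not tested.

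The order of the mRNAs by listed FPKM was nearly the same in every library. mt-Co1, mt-Atp6, mt-Cytb and mt-Nd1 held the first 4 places in all 6 libraries, in changing order, and their ranges over libraries overlapped. mt-Co3, mt-Co2, mt-Atp8 and mt-Nd4 came next, at places 5 to 8, and mt-Nd4l followed at place 9 or 10. mt-Nd3 was last in 5 libraries and second to last in NR replicate 1, where mt-Nd5 was lower. These places leave out the values listed for the nuclear copies. The copies match nearly all bases of mt-Atp6, mt-Co2, mt-Co3 and mt-Nd4l, whereas none of those described matches mt-Cytb or mt-Nd1. The order with the copies added was not examined. Across the 13 mRNAs, the log2 profiles of any pair of libraries had a Pearson r of 0.858 to 0.977, with a mean of 0.951 within and 0.942 between groups. Over the 6155 tested genes of the whole table the mean was 0.417 within and 0.425 between groups. These correlations are across genes, which are not independent replicates and differ in abundance between the gene sets.

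**Figure D3:**
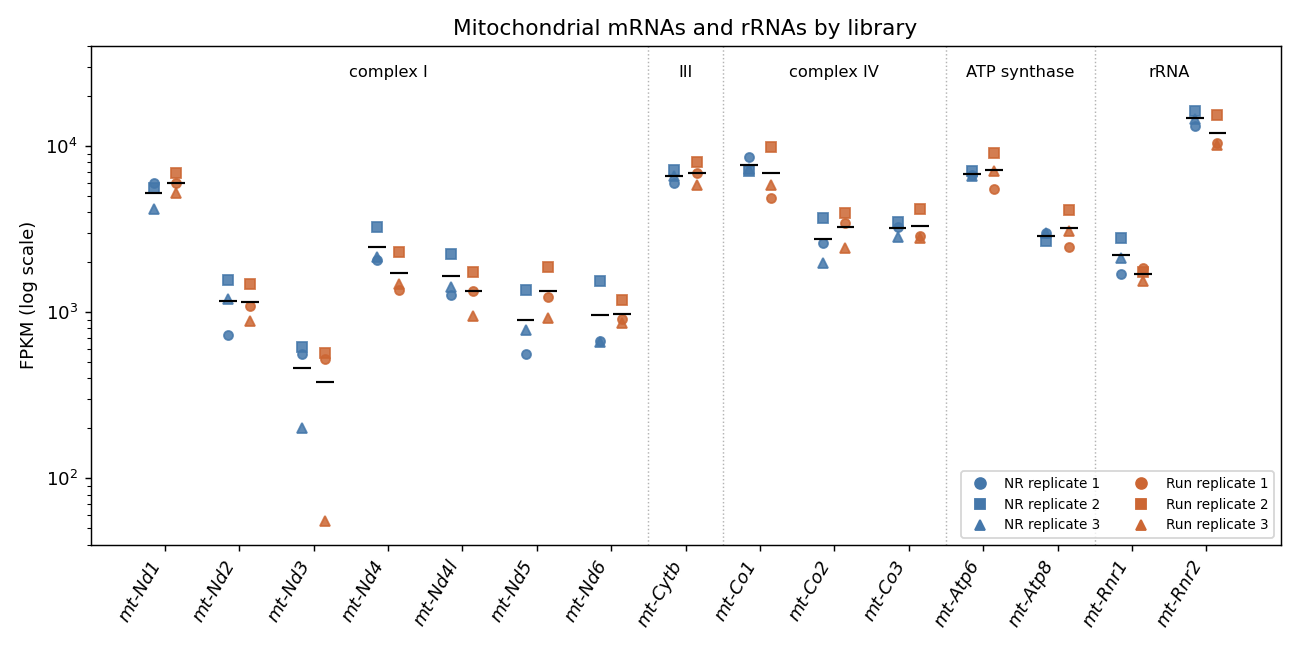
FPKM (log scale) of the 13 mitochondrial mRNAs, by respiratory complex, and the 2 rRNAs, 1 symbol per library, with the mean of each group as a black line. The groups overlap for every gene, and mt-Nd3 shows the widest spread, down to 55.7 FPKM in Run replicate 3.

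The rRNAs, which form the core of the mitochondrial ribosome, included the mitochondrial RNA with the highest listed FPKM. mt-Rnr2, the 16S rRNA of the large subunit (1094 to 2675), had 13155, 16315 and 14636 FPKM without running and 10456, 15297 and 10112 with running. Run replicates 1 and 3 lay below every NR library and Run replicate 2 within their range. mt-Rnr1, the 12S rRNA of the small subunit (70 to 1024), had 1694, 2785 and 2132 without running and 1838, 1758 and 1532 with running. Per length, mt-Rnr2 was 5.69 to 8.70 times as high as mt-Rnr1.

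The ratio of rRNA to mRNA was lower in each Run library than in each NR library. The summed rRNA FPKM was 0.354, 0.404 and 0.430 times the summed mRNA FPKM in NR and 0.319, 0.310 and 0.311 times in Run, a mean of 0.396 ± 0.039 against 0.313 ± 0.005 (SD, n = 3 each). The sum is mostly mt-Rnr2, and relative to the mRNA sum mt-Rnr1 alone overlapped between the groups. The other class and complex shares given here overlapped too. The ratio is a description without a test, as a measure over members taken as a group, and 3 against 3 libraries allow no exact p below 0.1.

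The tRNA genes, 59 to 75 bases long, were far less even than the longer RNAs. Only 11 of 22 reached FPKM 1 in all 6 libraries, and mature tRNAs carry no poly(A) tail of the kind the method primes on. One of them stood apart. mt-Ts1, whose sequence opposite mt-Co1 is shown above, had 2201, 2438 and 2078 FPKM without running and 1400, 2466 and 1993 with running. The next highest, the methionine tRNA gene mt-Tm (3845 to 3913), had a mean of 278 over the 6 libraries. mt-Co1 was 2.91 to 3.995 times as high as mt-Ts1 over the 6 libraries.

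Below mt-Ts1 levels within a group were widely spread. mt-Tm had 272, 469 and 353 FPKM without running and 211 and 364 in Run replicates 1 and 2, and was listed at 0 in Run replicate 3. The glutamine tRNA gene mt-Tq, on the minus strand, had 122, 351 and 183 without running and 97.3, 166 and 3.17 with running. The glutamate gene mt-Te, between mt-Nd6 and mt-Cytb, was steadier, at 96.1, 219 and 118 without running and 171, 127 and 171 with running. These 3 were the highest tRNA genes after mt-Ts1 in mean FPKM, and the groups overlapped for each.

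Among the remaining tRNA genes, the alanine gene mt-Ta had 46.3, 165 and 100.5 FPKM without running and 21.1, 116 and 0 with running, and the asparagine gene mt-Tn 6.02, 180.2 and 126 without running and 16.7, 147 and 1.40 with running. The tryptophan gene mt-Tw had 91.5, 119 and 49.9 without running and 23.2, 71.9 and 16.8 with running. In the opposite direction, the leucine gene mt-Tl1 had 1.92, 31.8 and 90.5 without running and 87.1, 213 and 68.0 with running. None of the 4 had groups that did not overlap. The isoleucine gene mt-Ti ranged from 6.17 to 256 over the 6 libraries, the proline gene mt-Tp from 1.50 to 128, the tyrosine gene mt-Ty from 13.3 to 123 and the glycine gene mt-Tg from 1.06 to 149.9. The cysteine gene mt-Tc, listed at 0 in NR replicate 1, reached 153, and the arginine gene mt-Tr, at 0 in NR replicate 1 and Run replicate 1, reached 105. For mt-Tv (valine), mt-Tt (threonine), mt-Td (aspartate) and mt-Tf (phenylalanine) the highest values were 88.3, 49.1, 31.3 and 28.2.

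The lowest 4 tRNA genes passed FPKM 1 in at most 2 libraries and were not tested. The histidine gene mt-Th had 0.694, 33.6 and 3.73 FPKM without running and 0.434, 0.440 and 0.331 with running. Its groups did not overlap, with Run below, as for 4.19% of the genes that were tested, but only 2 of its values reached FPKM 1. mt-Tk (lysine), mt-Tl2 (leucine) and mt-Ts2 (serine) were highest in NR replicate 2, at 27.1, 20.9 and 21.8. Of these, mt-Tk and mt-Tl2 passed FPKM 1 in another library, Run replicate 2 (2.62) and Run replicate 1 (16.3), and mt-Ts2 had at most 0.0212 elsewhere.

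The tRNA genes were most often detected in NR replicate 2. This library, which had the most genes at FPKM 1 in the whole table, was the highest library for 14 of 22 tRNA genes, and 21 of 22 reached FPKM 1 there. Run replicate 3 was the lowest for 9 and NR replicate 1 for 7. In these, 14 and 16 tRNA genes reached FPKM 1, and the whole table had 5534 and 5426 genes at that level. The part of depth in these differences was not tested. The 8 tRNA genes on the minus strand had means over the 6 libraries of 57.6 to 2096 FPKM, and the 14 on the plus strand 3.63 to 278, with medians of 77.2 and 18.8. Fragments from either strand could give these values, since strand was not recorded.

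**Figure D4:**
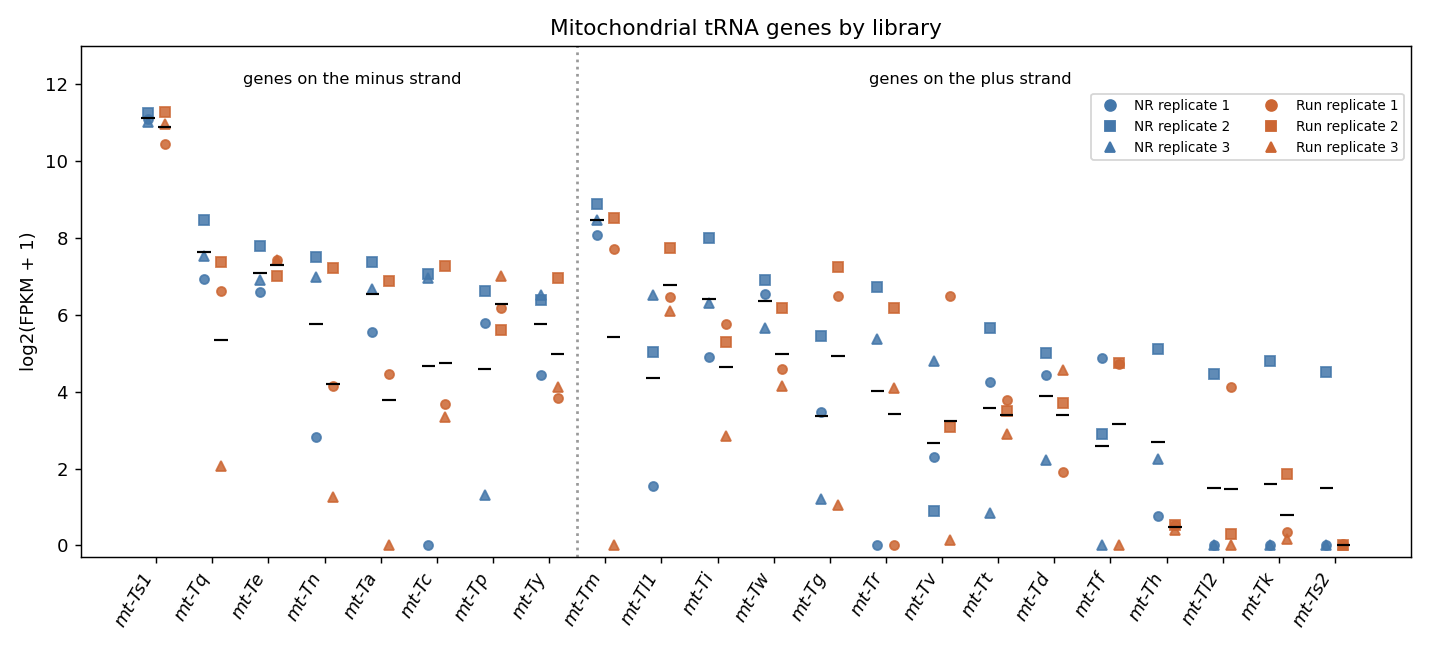
The 22 mitochondrial tRNA genes by strand and mean level, as log2(FPKM + 1), 1 symbol per library and the mean of each group as a black line. mt-Ts1 stands above the rest in all 6 libraries, and for most other genes the libraries of 1 group spread over several log2 units.

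The comparison of Run with NR asks whether mitochondrial RNA levels of the labelled cells differ with voluntary running in mice that had been through the stress procedure. For no mitochondrially encoded gene did the difference pass the test. FPKM values were compared as log2(FPKM + 1) with limma over the 6155 genes that reached FPKM 1 in 3 or more libraries. With a Benjamini-Hochberg adjusted threshold of 0.05, 0 of the 33 mitochondrial genes tested passed, as did 0 of all tested genes (0.0%). At an unadjusted p under 0.05 there were 0 of the 33, against 4.94% of all tested genes. The groups did not overlap for 0 of the 33, against 8.95% of all tested genes, 4.76% with Run above and 4.19% with Run below. The median SE of the log2 difference over all tested genes was 1.51, so for most genes the count of 0 leaves room for large differences.

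The mRNA differences were resolved to different degrees. Of the 13 mRNAs, 9 had a positive and 4 a negative log2 difference (Run minus NR), with a median of 0.05 against -0.03 over all tested genes. For mt-Cytb the difference was 0.05 ± 0.15 (SE) and its 95% confidence interval reached from 0.817 to 1.32 times the NR level. The interval was 0.772 to 1.40 times for mt-Atp6, 0.731 to 1.41 for mt-Co3, 0.866 to 1.54 for mt-Nd1 and 0.563 to 1.30 for mt-Co1. For mt-Atp8 it was 0.774 to 1.54 times, for mt-Co2 0.758 to 1.89 and for mt-Nd2 0.570 to 1.80. A doubling and a halving lie outside all of these intervals, which leave room for smaller differences. Other intervals were 0.432 to 1.09 times for mt-Nd4, 0.486 to 1.39 for mt-Nd4l, 0.780 to 2.998 for mt-Nd5 and 0.585 to 2.07 for mt-Nd6. A 2-fold difference in 1 direction lies within each of the latter. The mRNA with the smallest unadjusted p was mt-Nd4, with a difference of -0.54 ± 0.28 (limma adjusted p = 0.978), and that with the largest positive difference was mt-Nd5, at 0.61 ± 0.41 (adjusted p = 0.978). mt-Nd3 had -0.68 ± 0.97, with an interval of 0.128 to 3.04 times, which allows a large difference in either direction.

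The rRNA differences were both negative, -0.34 ± 0.23 for mt-Rnr1 and -0.32 ± 0.17 for mt-Rnr2 (SE, limma adjusted p = 0.978 for each). Of the 18 tRNA genes tested, 7 had a positive and 11 a negative difference, with a median of -0.37 and a range of -3.07 for mt-Tm to 2.41 for mt-Tl1. The steadiest of them, mt-Ts1, had -0.23 ± 0.24. As a median over genes, the residual SD in log2 units was 0.39 for the mRNAs, 0.27 for the rRNAs and 2.09 for the tRNA genes, against 1.98 over all tested genes and 0.44 over 26 other genes with a mean of at least 1000 FPKM.

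**Figure D5:**
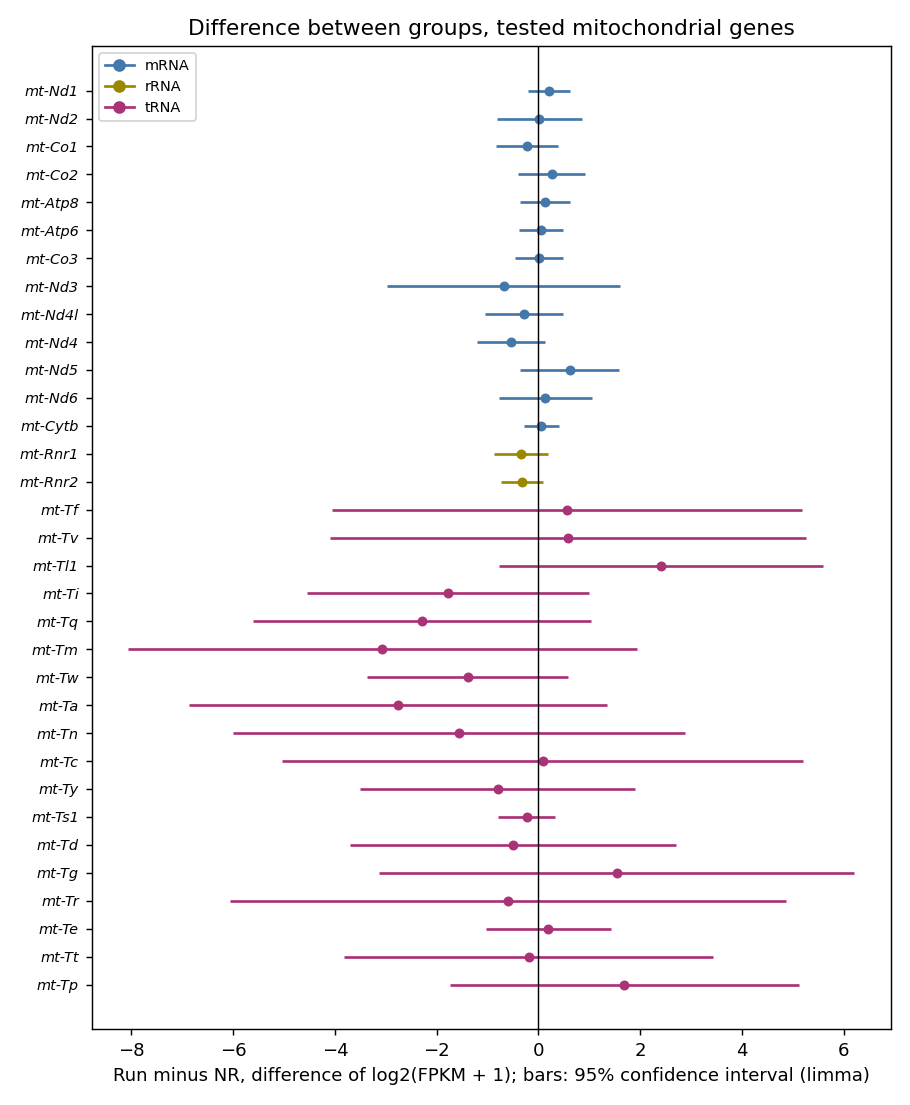
Difference of log2(FPKM + 1) between Run and NR with its 95% confidence interval for the 33 tested mitochondrial genes, mRNAs first, then rRNAs and tRNA genes. Every interval includes 0, and those of the tRNA genes other than mt-Ts1 and mt-Te are several log2 units wide.

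The median of the 13 mRNA differences changed sign when either of 2 libraries was left out. Without Run replicate 2 it was -0.12, with 3 positive, and without NR replicate 1 it was -0.02, with 6 positive. It stayed positive without NR replicate 2 (0.09, with 9 positive), NR replicate 3 (0.04, with 7), Run replicate 1 (0.10, with 9) or Run replicate 3 (0.17, with 10). The differences of mt-Co1, mt-Co2, mt-Nd1, mt-Nd4, mt-Nd4l and mt-Nd5 kept their sign whichever single library was left out. Without Run replicate 2, 5 of the 33 genes, mt-Co1, mt-Nd4, mt-Rnr2, mt-Ta and mt-Tw, had an unadjusted limma p under 0.05, all with negative differences, against 5.91% of all tested genes. None of the 33 passed the adjusted threshold, the lowest adjusted p being 0.357 for mt-Rnr2, with a difference of -0.51 ± 0.10 (SE). With other libraries left out, positive differences had an unadjusted limma p under 0.05. They were those of mt-Nd5 without NR replicate 2 (0.96, adjusted p = 0.817) and of mt-Tl1 without NR replicate 3 (3.48, adjusted p = 0.950). Each was 1 of the 33, against 5.93% and 4.91% of all tested genes.

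To compare the genes with each other rather than with the whole library, the values were also scaled to the same summed FPKM of the 13 mRNAs in each library, a choice made after the values were seen. The groups then did not overlap for 2 of the 33 genes, both with Run below, against 4.18% of all tested genes in that direction on the same scale. One was mt-Rnr2, with a difference of -0.33 ± 0.09 (SE, limma adjusted p = 0.421), and the other mt-Nd4, with -0.56 ± 0.21 (limma adjusted p = 0.908). These were also the 2 of 33 with an unadjusted p under 0.05, against 4.68% of all tested genes. As a share of the mitochondrial mRNA FPKM, mt-Nd4 made up 4.93%, 6.84% and 5.49% without running and 3.52%, 4.19% and 3.95% with running. mt-Co3 was the most even member on this scale, at 7.26% to 7.81% of the mRNA sum in all 6 libraries. None of the 33 passed the adjusted threshold.

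By complex, the shares of the mitochondrial mRNA FPKM differed by less than the spread within the groups. Complex I held 29.8% ± 3.7 without running and 29.7% ± 2.4 with running (SD, n = 3 each), and complex III 15.5% ± 1.4 and 15.96% ± 1.7. Complex IV held 31.9% ± 2.3 and 30.4% ± 1.9, and the ATP synthase 22.8% ± 2.1 and 23.9% ± 3.2. The groups overlapped for each complex.

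The nuclear partners of these subunits were expressed at lower levels per gene. The mean FPKM per gene of the mitochondrially encoded complex I subunits was 7.52 to 15.8 times that of 36 nuclear-encoded ones in the 6 libraries. The ratio was 16.5 to 35.1 for complex III, 6.40 to 19.5 for complex IV and 12.5 to 25.2 for the ATP synthase. Run replicate 2 had the highest ratio for all 4 complexes, and its nuclear mean for complexes I and IV and the ATP synthase was the lowest of the 6 libraries.

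By limma, 0 of the 36 complex I, 9 complex III, 11 complex IV and 17 ATP synthase nuclear genes tested passed the adjusted threshold, with median differences of -0.04, 0.15, 0.25 and -0.11. At an unadjusted p under 0.05 there were 1, 0, 0 and 1, against 4.94% of all tested genes. Those 2 were Ndufs1, an iron-sulfur subunit of complex I, with 24.7, 5.31 and 0.0679 FPKM without running and 36.1, 96.6 and 71.3 with running, and Atp5g1, which encodes the proton-carrying ring subunit of the ATP synthase, with 7.03, 133 and 8.91 without running and 192, 112 and 252 with running. Their adjusted p was 0.956. The next by p in each list were Ndufa9 and Ndufab1 of complex I (log2 differences of -3.69 and 1.43), Cyc1, Uqcrfs1 and Uqcr11 of complex III (2.08, 1.08 and 0.27), Cox4i1, Cox5b and Cox6a1 of complex IV (0.50, 0.57 and -0.46) and Atp5md and Atp5g3 of the ATP synthase (-0.72 and -1.12). None passed, each with an adjusted p of 0.978.

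Genes that copy, process, modify and translate mitochondrial RNA were detected sparsely. Of 62 such nuclear genes found in the table, 11 were listed at 0 in every library, 1 reached FPKM 1 in all 6, and 20 were tested. None passed the adjusted threshold by limma, 11 had positive and 9 negative differences, with a median of 0.48, and 1 had an unadjusted p under 0.05. This was Mto1, an enzyme that modifies mitochondrial tRNAs at the wobble base, with 37.2, 33.9 and 50.1 FPKM without running and 0.0303, 0 and 0.0205 with running (log2 difference of -5.33 ± 1.09, SE, limma adjusted p = 0.244, a size that depends on the pseudocount). Its groups did not overlap, as was the case for 4.19% of all tested genes with Run below. The mitochondrial translation initiation factor gene Mtif3 had 0, 0.0113 and 5.41 without running and 4.53, 5.62 and 8.70 with running. Tfb2m, which opens the mitochondrial promoters for the RNA polymerase, had 39.8, 40.2 and 16.4 without running, 46.8 in Run replicate 1 and 0 in the other Run libraries. The adjusted p of both was 0.978.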

How the data were processed

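RNA was measured in 6 Smart-seq2 libraries, 3 NR and 3 Run, grouped by the labels. The authors deposited FPKM values in a single table. StringTie 2.1.7, STAR 2.7.5c and Trimmomatic 0.39 are named in the submitters' processing notes, with the build mm10. The role of each tool, the annotation and the handling of fragments that match several loci are not given in the sources used here. FPKM holds no read totals, so depth is unknown, and for genes shorter than a fragment, such as tRNA genes, it depends strongly on the length used. A value of 0 can be a failed estimate.

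Of the symbols, 53289 (96.2%) matched GENCODE M21, which gave coordinates, lengths and transcript sequences. Nuclear copies were aligned locally to the mitochondrial transcripts (Biopython 1.88). Groups were compared on log2(FPKM + 1), 2-sided, with limma 3.58.1 (R 4.3.3), its variance prior following the mean level. Python 3.11.15 was used for the other steps. Named beside the members were the 3 tested genes with the smallest p of each nuclear list. The members and lists were chosen with earlier results of these data known. Alternatives changed the pseudocount, filter, scaling, trend, replicate block and libraries.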

Additional observations from a re-analysis of the deposited data

How the results depend on the processing

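The count of mitochondrially encoded genes past the adjusted limma threshold was 0 under each alternative run, as were those over all genes and over the expression machinery. No paired design is given by the labels: same-numbered libraries had correlations of their deviations of 0.0211, 0.00416 and 0.0179, although every library correlated best with its own number. With a replicate block the count was also 0, with 251 of all tested genes at an unadjusted p under 0.05 in place of 304, while among the 33 mitochondrially encoded genes there were 2, mt-Nd4 and mt-Rnr2, in place of 0 (lowest adjusted p = 0.954). Group differences of the ratio of rRNA to mRNA, -0.08 as reported, became -0.12 per fragment and -1.77 against the median mRNA, which change the unit of the ratio, and -0.10 to -0.07 with 1 library left out. The difference in mitochondrial share ranged from -2.41 to 0.34 percentage points with 1 library left out (-0.70 with all). For shares of the mRNA sum these ranges were -1.41 to 2.04 for complex I, -0.46 to 1.22 for complex III, -2.60 to -0.21 for complex IV and -0.48 to 2.73 for the ATP synthase. Per fragment, the differences of these shares were 1.08 (-0.10 as reported), 0.93 (0.47), -2.79 (-1.50) and 0.79 (1.13), so that of complex I changed sign. Single log2 differences changed sign under quantile normalization for mt-Co3 (-0.0842) and mt-Nd2 (-0.0455), with a pseudocount of 10 for mt-Tc (-0.50) and of 0.1 for mt-Tt (0.0457). Leaving out 1 library changed the sign of 14 of the 33, none of them past the threshold, with ranges of -0.12 to 0.24 for mt-Atp6, -0.0680 to 0.30 for mt-Atp8, -0.16 to 0.12 for mt-Co3, -0.0575 to 0.17 for mt-Cytb, -0.29 to 0.27 for mt-Nd2, -1.25 to 0.41 for mt-Nd3 and -0.0672 to 0.54 for mt-Nd6. Among tRNA genes they were -2.25 to 1.28 for mt-Tc, -1.33 to 0.24 for mt-Td, -0.0525 to 0.54 for mt-Te, -0.74 to 2.14 for mt-Tf, -2.62 to 1.11 for mt-Tr, -1.56 to 0.84 for mt-Tt and -1.04 to 2.13 for mt-Tv. Depth could not be read from FPKM, so levels near 0 have no known floor.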
